A study of Mus musculus with 13 samples.

Results

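Naive natural killer (NK) cells of the mouse spleen were compared after 6 hours of anti-NK1.1 (3 libraries, replicates 1, 4 and 5) and without stimulation (3 libraries, replicates 1, 4 and 6), across all measured genes. The 6 libraries were chosen by their labels alone, out of 13 in the series. The remaining 7 came from cells kept for 72 hours with interleukin-15 (IL-15), on which NK cells depend for survival. Of 11989 genes in the deposited table, 11543 passed a filter on low values and were tested.

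All cells were labelled as NK cells of wild-type C57BL/6 mice, and neither naive group was given a treatment before stimulation. The anti-NK1.1 group received an antibody against NK1.1, the receptor encoded by *Klrb1c*. The labels give no culture time for naive cells, and the table's header calls them "Fresh". They do not say whether unstimulated cells were also kept for 6 hours without antibody, so the antibody and the 6 hours outside the animal cannot be told apart. The origin of the replicates (animal or culture) is not labelled either, and the p-values therefore measure only a spread between libraries that may be technical. For anti-NK1.1 replicates 1 and 4 the stimulation label states only the 6 hours, and the group was taken from the sample titles.

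NK1.1 is an activating receptor that lacks signalling motifs of its own and works through the adaptor FcεRIγ, which carries an immunoreceptor tyrosine-based activation motif (ITAM). Src-family kinases phosphorylate the ITAM, Syk or ZAP-70 docks there, and scaffolds such as LAT and SLP-76 pass the signal to phospholipase Cγ, calcium, MAP kinases and NF-κB. NK cells answer by secreting interferon-γ and chemokines and by releasing granules that hold perforin and granzymes. Circulating NK cells are small and mostly resting, and activation brings larger demands for amino acids, protein synthesis and ribosomes.

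Levels are given as CPM, the back-transformed value divided by its library's sum and scaled to 1000000, and each difference is a log2 fold change, anti-NK1.1 minus unstimulated, ± standard error (SE). Both come from values that the authors had quantile-normalized, on the log2(value + 1) scale, which understates changes of low genes. Levels with ± are means ± SD over 3 libraries, and 3 values in a row are replicates in the order given above. A gene was called higher or lower when its adjusted p was under 0.05 (limma, Benjamini-Hochberg over all tested genes). Read numbers reconstructed from each library's ranked values put the unstimulated libraries at 0.578 to 0.764 times the mean depth of the 13 libraries and the anti-NK1.1 libraries at 0.857 to 1.04 times. The median gene had 112 to 148 reads per unstimulated and 166 to 201 per anti-NK1.1 library, so depth moved with the group. Across genes, r was 0.955 to 0.967 within a group and 0.892 to 0.908 between the groups, where genes are not independent replicates.

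After anti-NK1.1, 1678 genes were higher, 14.5% of those tested, and 1698 were lower, 14.7%. Counts in the gene lists below are to be read beside these shares. The median difference over all tested genes was 0.01. The 3 libraries of each group did not overlap for 4895 genes (42.4% of those tested), among them 3264 of the 3376 called genes. Lack of overlap was also a condition for naming genes by size, p or level. Where it is stated below for a called gene, it describes the values and adds no support to the call. Of the genes called higher, 766 differed by 1 to 2 on the log2 scale, 227 by 2 to 3, 85 by 3 to 4 and 64 by 4 or more. Among those called lower, the same classes held 746, 297, 91 and 31 genes.

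The receptor's own messenger was lower. *Klrb1c* (chromosome 6, 128778485 to 128789215, minus strand, mm10) stood at 614, 759.6 and 772 CPM in the unstimulated libraries and at 63.6, 69.6 and 64.3 CPM after anti-NK1.1. All 3 stimulated libraries lay far below the unstimulated ones, and the difference was -3.43 ± 0.18 (adjusted p = 2.19e-08). Its relatives in the same gene cluster did not all move alike. *Klrb1a* (128609227 to 128623533) stood at 126, 135 and 156 CPM without and 17.88, 12.2 and 15.3 CPM with anti-NK1.1, a difference of -3.20 ± 0.21. *Klrb1f* (129045901 to 129057464, plus strand), chosen after its values were seen, also fell (-1.72 ± 0.34). *Klrb1b* (128813706 to 128826331), which encodes an inhibitory relative and was likewise chosen after its values were seen, rose from 145, 171 and 138 to 279.9, 230.4 and 354 CPM (0.91 ± 0.21, adjusted p = 0.00576), with no overlap. Reads of such close relatives (Klrb1 and Klra) may be shared in counting, which leaves their separate values uncertain. *Cd69* (129267325 to 129275436, minus strand), a surface marker of early lymphocyte activation in the same region, stood at 164, 209.8 and 202 CPM without and at 54.5, 48.9 and 53.8 CPM with anti-NK1.1, again without overlap (-1.86 ± 0.20).

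Across activating receptors and ITAM adaptors, 14 of 24 tested genes were lower and 2 higher, with a median difference of -1.49. The natural cytotoxicity receptor NKp46, encoded by *Ncr1*, went from 436, 603 and 579.7 to 82.7, 70.8 and 75.7 CPM. *Tyrobp*, which encodes the ITAM adaptor DAP12, went from 2689.7, 3064 and 3148 to 724, 772 and 741 CPM (-1.99 ± 0.24). Both genes were lower in every stimulated library than in any unstimulated one. *Cd48*, a ligand of the receptor 2B4, fell as well (-2.003 ± 0.21). *Fcer1g*, whose product is the adaptor of NK1.1 itself, did not pass the threshold (1749 ± 147 CPM without and 1158 ± 222 CPM with anti-NK1.1, -0.61 ± 0.24, adjusted p = 0.0731), nor did *Klrk1*, which encodes NKG2D (-0.07 ± 0.19, adjusted p = 0.812). The list's clearest increase was *Crtam*, an adhesion receptor of activated lymphocytes, at 28.5, 31.8 and 32.1 CPM without and 587, 501 and 576 CPM with anti-NK1.1 (4.17 ± 0.16, adjusted p = 1.58e-09). In a list of inhibitory receptors, 11 of 23 genes were lower and 3 higher. The list is not pure, since it also holds *Klra4*, which encodes an activating receptor and was not called (-0.52 ± 0.24, adjusted p = 0.123). *Klrg1*, a receptor of mature NK cells for cadherins, fell from 199.98, 119 and 142 to 13.9, 13.2 and 17.2 CPM (-3.35 ± 0.23), and *Cd96* and *Cd160* fell (-1.36 ± 0.22 and -1.84 ± 0.26). *Havcr2*, which encodes the checkpoint receptor TIM-3, rose from a low level of 1.31 ± 0.119 to 6.79 ± 2.76 CPM (2.24 ± 0.28).

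**Figure D1:**
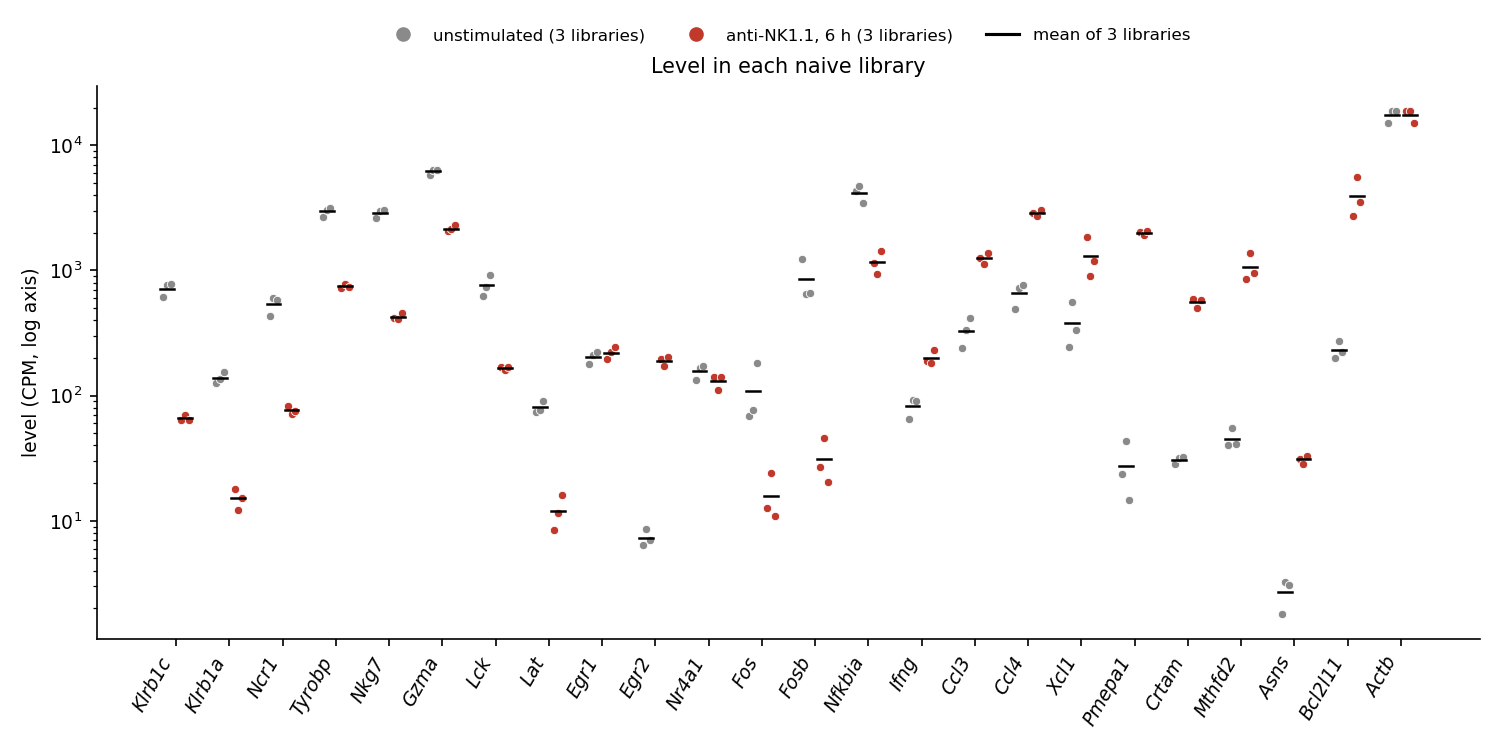
Level of 24 genes in each naive library (y axis, CPM on a log axis), with unstimulated libraries in grey, anti-NK1.1 libraries in red and the mean of 3 libraries as a black bar. *Klrb1c*, *Ncr1*, *Tyrobp*, *Nkg7*, *Fosb* and *Nfkbia* lie lower after anti-NK1.1, *Egr2*, *Ccl4*, *Pmepa1*, *Crtam*, *Mthfd2* and *Bcl2l11* lie higher, and *Egr1*, *Nr4a1* and *Actb* overlap.

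Below the receptors, 11 of 32 genes for proximal kinases, scaffolds and phospholipases were lower and 1 was higher (0 when any naive library but anti-NK1.1 replicate 5 was left out; median -0.57). *Lck*, a Src-family kinase, stood at 627, 735 and 913 CPM in unstimulated and 170.4, 159.9 and 168 CPM in anti-NK1.1 libraries (-2.17 ± 0.21). *Lat*, the scaffold that recruits phospholipase Cγ, stood at 74.3, 76.8 and 90.6 and 8.501, 11.5 and 16.2 CPM (-2.77 ± 0.24), and *Plcg2*, the phospholipase itself, fell (-1.80 ± 0.21). Stimulated libraries lay below unstimulated ones for all 3 genes. The 1 member called higher was *Lcp2*, chosen after its values were seen, which encodes SLP-76 (1.103 ± 0.40, adjusted p = 0.0493). It lost that call when any naive library other than anti-NK1.1 replicate 5 was left out. *Fyn* (-0.24 ± 0.19, adjusted p = 0.364) and *Grb2* (-0.45 ± 0.19, adjusted p = 0.082) did not pass the threshold.

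Inhibitors of receptor signalling moved both ways, with 9 of 30 higher and 6 lower. *Cish*, a STAT5-induced inhibitor of cytokine signalling, rose from 15.3 ± 4.86 to 79.8 ± 4.92 CPM (2.42 ± 0.24), and *Rasa2*, a Ras GTPase-activating protein, from 50.3 ± 6.04 to 219 ± 71.2 CPM (2.08 ± 0.23). *Dok2*, an adaptor that restrains tyrosine kinase signals, fell from 117 ± 12.1 to 19.5 ± 0.947 CPM (-2.58 ± 0.19). In the calcium pathway, *Homer1* (2.54 ± 0.22) and the kinase gene *Camk4* (2.42 ± 0.27) rose, while *Atp2a3*, a calcium pump of the endoplasmic reticulum, fell from 195, 260.1 and 213 to 26.5, 28.0 and 28.3 CPM (-3.00 ± 0.25). That list had 5 of 29 higher (17.2%) and 7 lower (24.1%), beside 14.5% and 14.7% of all genes. The lower count was 4 without unstimulated replicate 4 or without anti-NK1.1 replicate 5.

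**Figure D2:**
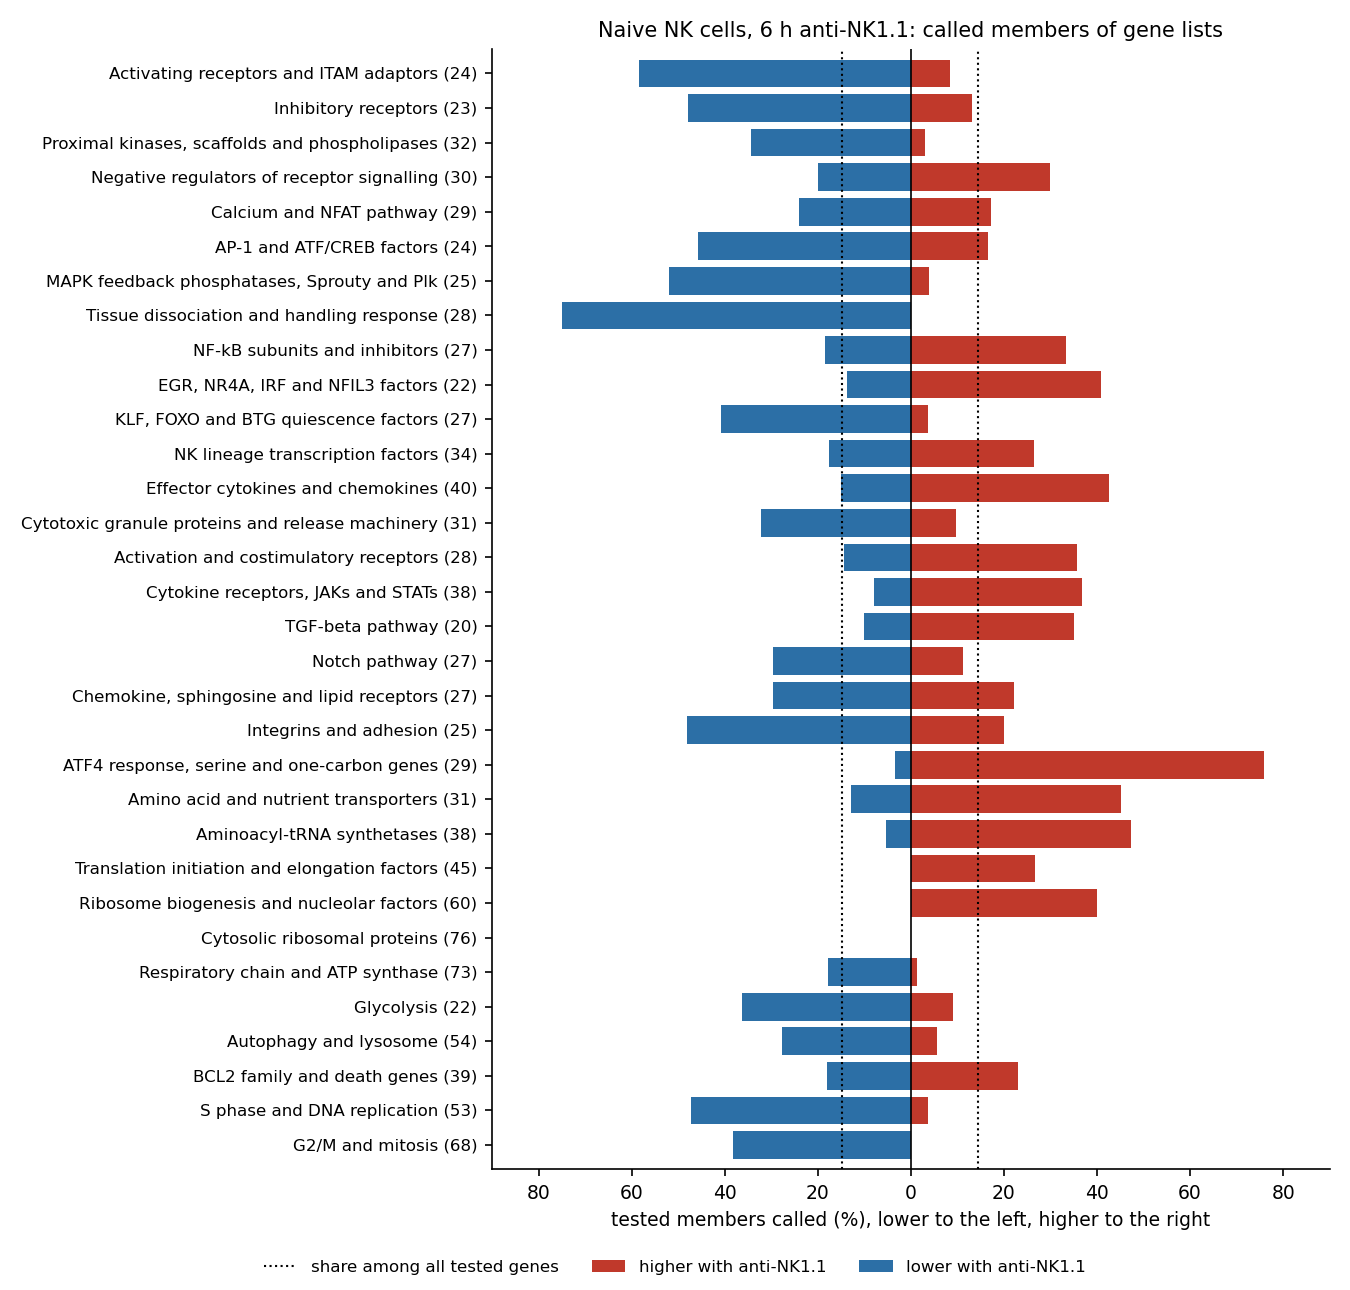
Percent of tested members called lower (blue, left) or higher (red, right) after anti-NK1.1 in 32 gene lists (y axis, number of tested members in parentheses). Dotted lines mark the shares among all tested genes, 14.7% lower and 14.5% higher; the handling list reaches 75% lower and the ATF4 list 75.9% higher.

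*Fos*, *Fosb*, *Jun* and further AP-1 genes were lower after 6 hours of anti-NK1.1 than in unstimulated cells. The remaining AP-1, ATF and CREB genes were higher or not called. AP-1 is a dimer of Fos and Jun proteins that activates genes within minutes of a signal, and its subunit genes are also induced when tissue is cut, digested and sorted. Of 24 AP-1, ATF and CREB genes, 11 were lower and 4 higher, the latter 2 without unstimulated replicate 4, unstimulated replicate 6 or anti-NK1.1 replicate 5. *Fosb* stood at 1232, 651 and 663 CPM without and 26.8, 45.7 and 20.2 CPM with anti-NK1.1 (-4.79 ± 0.39, adjusted p = 1.07e-06). *Jun* stood at 651, 598 and 1279 and 163, 93.0 and 120.5 CPM (-2.70 ± 0.36). *Fos* stood at 68.8, 76.1 and 182 and 12.6, 24.2 and 10.9 CPM (-2.71 ± 0.59). Unstimulated replicate 1 was the highest for *Fosb* and replicate 6 for *Jun* and *Fos*, and no group overlapped the other. *Fosl2*, *Batf* and *Maff* fell as well (-1.24 ± 0.20, -1.28 ± 0.22 and -1.47 ± 0.26). *Crem* (0.98 ± 0.21), chosen after its values were seen, and *Atf6* (1.47 ± 0.29), which encodes a sensor of the endoplasmic reticulum, rose.

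A list of 28 genes known to rise during tissue dissociation and handling had 21 lower and 0 higher, with a median of -1.40. Its summed level was 21208 ± 1039.8 CPM in unstimulated and 11046 ± 825 CPM in anti-NK1.1 libraries (mean ± SD, n = 3 each), with no overlap between groups (exact permutation test, two-sided, p = 0.1, the smallest that 3 against 3 libraries allow). For this list and the others with 0 members called in a direction, no member had an unadjusted p under 0.05 in that direction, and limma-voom on reconstructed reads called 0. Beside AP-1 genes it held *Nfkbia*, *Klf6*, *Dusp1* and *Ier3*. Whether handling before RNA isolation differed between the groups was not tested, and the labels give no value for it. Among 25 genes of MAP kinase feedback, 13 were lower and 1 was higher (0 without replicate 1 of either group, unstimulated replicate 6 or anti-NK1.1 replicate 5; median -1.09). *Dusp1*, a phosphatase of MAP kinases, went from 311, 453 and 502 to 66.3, 54.4 and 76.2 CPM (-2.67 ± 0.23), and *Spry2*, an inhibitor of Ras signalling, from 272, 410.2 and 397 to 90.8, 77.6 and 118 CPM (-1.91 ± 0.22). Again the stimulated libraries lay lowest. *Dusp2* (0.50 ± 0.25, adjusted p = 0.145) and *Dusp5* (-0.42 ± 0.33, adjusted p = 0.374) did not pass the threshold.

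Early growth response (EGR) genes, which respond to antigen receptor signals, split by member. *Egr2* rose from 6.36, 8.54 and 7.08 to 196, 171 and 205 CPM (4.69 ± 0.28, adjusted p = 6.64e-08), and its corepressor gene *Nab2* from 17.7, 27.5 and 16.5 to 82.0, 71.5 and 86.0 CPM (1.99 ± 0.22). For both genes every stimulated library exceeded every unstimulated one. *Egr1* overlapped between groups at 177, 209 and 222 CPM without and 195, 222 and 243 CPM with anti-NK1.1 (0.12 ± 0.21, adjusted p = 0.718). *Nr4a1*, an orphan nuclear receptor gene often used as a reporter of antigen receptor signalling, also overlapped, at 134, 167 and 171 and 141, 111 and 139.9 CPM. *Nr4a3*, chosen after its values were seen, rose by 1.43 ± 0.29. *Irf4*, which rises with receptor signal strength in lymphocytes, went from 3.68, 5.26 and 3.96 to 20.2, 21.3 and 20.5 CPM (2.26 ± 0.25), and *Irf8* from 2081, 2855 and 1911 to 4749, 5229 and 7273 CPM (1.33 ± 0.26). *Bhlhe40*, a repressor that controls cytokine genes and clock genes, fell (-1.79 ± 0.19). In all, 9 of 22 such factors were higher and 3 lower.

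NF-κB genes moved both ways. The subunit genes *Nfkb1* (138, 160.4 and 142 to 411, 398 and 459.9 CPM, 1.53 ± 0.18), *Nfkb2* (41.5, 51.0 and 34.4 to 151, 129 and 134 CPM, 1.72 ± 0.24) and *Relb* (27.5, 26.4 and 25.9 to 95.3, 82.3 and 97.0 CPM, 1.78 ± 0.18) rose without overlap. *Rela* (0.35 ± 0.22, adjusted p = 0.251) and *Rel* (0.76 ± 0.37, adjusted p = 0.144) did not pass the threshold, the latter with an adjusted p of 0.0384 without unstimulated replicate 1. *Nfkbia*, which encodes the inhibitor IκBα, went from 4321, 4686 and 3452 to 1152, 931 and 1431 CPM (-1.84 ± 0.22), and *Nfkbiz*, an atypical nuclear member of that family, from 443, 534 and 651 to 40.3, 45.9 and 33.2 CPM (-3.76 ± 0.27). *Tnfaip3*, whose product A20 ends NF-κB signalling, and *Nfkbie*, both chosen after their values were seen, fell (-1.24 ± 0.20 and -2.39 ± 0.49). *Tnip1*, a partner of A20, rose by 1.37 ± 0.21. The list's counts were 9 higher and 5 lower of 27.

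Among effector genes, 17 of 40 tested cytokines and chemokines were higher and 6 lower. *Ifng* stood at 65.4, 91.5 and 91.0 CPM without and 190.4, 182 and 231 CPM with anti-NK1.1, so that its lowest stimulated library was above the highest unstimulated one. The chemokines *Ccl3* (238, 334 and 419.6 to 1248, 1124 and 1382 CPM), *Ccl4* (494, 724 and 759.6 to 2855, 2739 and 3064 CPM) and *Xcl1* (246, 559.5 and 337 to 1839.7, 903 and 1193 CPM), which draw in macrophages, T cells and dendritic cells, rose without overlap. For *Xcl1* anti-NK1.1 replicate 1 was the highest. *Ccl22*, better known from dendritic cells, rose from 0.932, 0.956 and 1.24 to 34.0, 29.4 and 31.7 CPM (4.84 ± 0.35, adjusted p = 3.09e-07), and *Pdgfa*, a growth factor gene, by 2.87 ± 0.27. *Ccl5* was 9004, 9853 and 9004 CPM without and 5818, 4749 and 6790.4 CPM with anti-NK1.1 (-0.70 ± 0.25, adjusted p = 0.051, and 0.0489 without anti-NK1.1 replicate 5). *Osm* and *Csf1*, the latter chosen after its values were seen, fell (-3.08 ± 0.29 and -2.37 ± 0.51).

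Of the genes for granule proteins and their release, 10 of 31 were lower and 3 higher. *Nkg7*, a granule membrane protein needed for cytotoxic release, fell from 2609, 2964 and 3064 to 416, 408 and 453 CPM (-2.76 ± 0.20), and *Gzma* from 5818, 6362 and 6362 to 2048, 2132 and 2293 CPM (-1.52 ± 0.23). *Gzmm*, another granzyme, and the cathepsin genes *Ctsw* and *Ctsd* fell (-2.41 ± 0.31, -1.51 ± 0.22 and -1.20 ± 0.18). *Gzmb* was 178, 245 and 243 CPM without and 207, 153 and 238 CPM with anti-NK1.1, and *Prf1* was 351, 591 and 1349.5 and 343, 234 and 352 CPM. Neither passed the threshold (adjusted p = 0.648 and 0.0549), though *Prf1* did without unstimulated replicate 1 (adjusted p = 0.0105). *Srgn*, chosen after its values were seen, encodes the proteoglycan that packs granules and rose by 1.27 ± 0.23.

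Genes of the ATF4 response and of serine and folate metabolism formed, of the 56 lists, the one with the largest share of increases, 22 of 29 tested (75.9%) against 14.5% of all genes, with 1 lower and a median of 2.42. ATF4 is a transcription factor made when amino acids run short or protein folding fails, and in activated lymphocytes it also serves growth. It binds, together with C/EBP partners, to C/EBP-ATF response elements (CARE), here searched as TGATGNAA. *Mthfd2*, a mitochondrial folate enzyme, stood at 40.1, 55.1 and 41.0 CPM without and 852, 1382 and 956 CPM with anti-NK1.1 (4.53 ± 0.22, adjusted p = 9.94e-09). *Asns*, which makes asparagine, stood at 1.79, 3.23 and 3.05 and 31.4, 28.2 and 33.0 CPM (3.52 ± 0.24). *Trib3*, a pseudokinase that feeds back on ATF4, stood at 0.519, 2.71 and 0.961 and 78.0, 58.6 and 72.1 CPM (5.85 ± 0.42). In each case all stimulated libraries were above all unstimulated ones.

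The related factor gene *Atf5* (3.48 ± 1.095 to 41.0 ± 2.51 CPM, 3.57 ± 0.26), the alanine transaminase *Gpt2* (5.08 ± 0.39) and the cystine transporter *Slc7a11* (3.25 ± 0.46) rose as well. Further members, chosen after their values were seen, were *Atf4* itself (308, 375 and 254 to 848, 680.4 and 935 CPM, 1.40 ± 0.21), the glutathione-degrading enzyme *Chac1* (6.90 ± 0.57), the serine synthesis genes *Phgdh* (2.43 ± 0.21) and *Psat1* (2.42 ± 0.24), *Shmt2* (2.91 ± 0.23), *Pck2* (2.24 ± 0.18) and the proline synthesis gene *Pycr1* (5.59 ± 0.68). The member that fell was *Ppp1r15a* (132, 103 and 139 to 27.6, 39.6 and 26.4 CPM, -2.01 ± 0.29), also chosen after its values were seen. It encodes GADD34, which reverses phosphorylation of eIF2α, and it is also a member of the handling list. *Mthfd1*, a cytosolic folate enzyme, did not pass the threshold (0.16 ± 0.21, adjusted p = 0.614).

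Promoters of these genes were read from RefSeq (GRCm38.p6), 300 bases each, from 250 before to 50 after the annotated start, and searched on both strands. A promoter was found for 9378 of the 11543 tested genes, and a match to one motif was counted whether or not it overlapped a match to another. CARE was found in 2.32% of all these promoters, in 6 of 20 (30%) from called ATF4 list members and in 5 of 15 (33.3%) from called aminoacyl-tRNA synthetases. Over these whole lists, called or not, it was found in 7 of 26 (26.9%) and 5 of 29 (17.2%). The promoters of *Asns* and *Trib3* are shown whole, since they are the 2 with a match among the 6 called members of smallest p, with CARE in capitals, on the gene's own strand. A match on the opposite strand reads as the reverse complement.
Asns (chr6:7693160-7693459, minus strand): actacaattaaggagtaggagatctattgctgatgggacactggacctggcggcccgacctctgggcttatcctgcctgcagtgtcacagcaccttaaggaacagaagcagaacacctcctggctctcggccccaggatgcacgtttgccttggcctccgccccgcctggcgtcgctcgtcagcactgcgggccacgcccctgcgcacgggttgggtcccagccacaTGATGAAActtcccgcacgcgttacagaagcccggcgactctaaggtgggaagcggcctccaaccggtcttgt
Trib3 (chr2:152344011-152344310, minus strand): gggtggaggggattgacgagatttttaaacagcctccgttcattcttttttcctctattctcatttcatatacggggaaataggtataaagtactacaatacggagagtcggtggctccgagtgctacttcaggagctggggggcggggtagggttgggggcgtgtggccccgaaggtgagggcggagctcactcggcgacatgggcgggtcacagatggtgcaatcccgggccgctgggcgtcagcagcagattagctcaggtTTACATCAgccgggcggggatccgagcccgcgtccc

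Around matches in called genes of the ATF4, transporter and synthetase lists, 30 bases are aligned below in the motif's own orientation, with TGATGNAA in capitals. They are shown to let the flanks be compared, and they were chosen after the matches were seen. The strand given is that of the printed sequence.
Trib3 (chr2:152344028-152344057, plus strand): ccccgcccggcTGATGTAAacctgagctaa
Chac1 (chr2:119351038-119351067, minus strand): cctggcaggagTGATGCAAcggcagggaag
Asns (chr6:7693214-7693243, minus strand): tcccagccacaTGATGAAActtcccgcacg
Pycr1 (chr11:120643833-120643862, minus strand): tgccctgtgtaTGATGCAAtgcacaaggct
Pck2 (chr14:55540152-55540181, minus strand): ctgtaagatacTGATGTAActttgaaggct
Slc7a11 (chr3:50443661-50443690, minus strand): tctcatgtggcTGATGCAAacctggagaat
Slc7a11 (chr3:50443642-50443671, plus strand): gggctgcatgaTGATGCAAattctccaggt
Slc1a4 (chr11:20332699-20332728, plus strand): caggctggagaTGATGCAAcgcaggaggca
Slc9a9 (chr9:94669812-94669841, plus strand): agaatcttttaTGATGAAAccaccctctgg
Gars (chr6:55037960-55037989, minus strand): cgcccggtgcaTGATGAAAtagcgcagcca
Iars (chr13:49682126-49682155, minus strand): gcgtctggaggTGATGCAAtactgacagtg
Tars (chr15:11399655-11399684, plus strand): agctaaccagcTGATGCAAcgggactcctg
Yars (chr4:129189895-129189924, plus strand): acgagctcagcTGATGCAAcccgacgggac
*Slc9a9*, an endosomal sodium-proton exchanger, is the 1 gene shown that fell, and the others rose. All 13 windows hold the searched letters by construction, and 8 of them carry C at the open position. *Slc7a11* held 2 matches, which lay on opposite strands. A match is a description of the letters only, and no match says only that these letters are not in this window.

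Amino acid and nutrient transporters had 14 of 31 higher and 4 lower. *Slc7a5*, the large neutral amino acid carrier, rose from 6.13, 5.53 and 6.17 to 112, 85.5 and 103 CPM (4.05 ± 0.28), and *Slc1a4*, a carrier of alanine, serine and cysteine, from 0.0117, 0.320 and 0.0117 to 29.6, 33.7 and 35.0 CPM, where 0.0117 is the level the table gives a gene without a read. *Slc7a3*, a carrier of cationic amino acids, had 0 reads over the 3 unstimulated libraries and 341 over the 3 anti-NK1.1 libraries. Against a floor of 3 reads over the group, and divided by depth, it was at least 85.0-fold higher. The glucose transporter gene *Slc2a3* fell from 38.8 ± 4.87 to 7.09 ± 1.03 CPM (-2.44 ± 0.21), and *Slc2a1*, chosen after its values were seen, fell (-1.08 ± 0.25).

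Of 38 aminoacyl-tRNA synthetases, which charge tRNAs with amino acids, 18 were higher and 2 lower. *Cars* rose from 9.96, 9.60 and 11.2 to 99.9, 105 and 90.6 CPM (3.25 ± 0.20, adjusted p = 1.08e-07), *Iars* from 6.62, 8.54 and 10.8 to 58.5, 72.01 and 66.2 CPM (2.93 ± 0.21) and *Gars* from 78.8, 97.6 and 84.3 to 266, 318 and 321 CPM (1.80 ± 0.17). None of the 3 overlapped between groups. *Cars2* and *Mars2*, the members that fell, were chosen after their values were seen and encode mitochondrial enzymes (-1.69 ± 0.28 and -1.43 ± 0.34). Members without a call included *Vars* (0.27 ± 0.19, adjusted p = 0.321) and *Kars* (0.03 ± 0.19, adjusted p = 0.927).

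**Figure D3:**
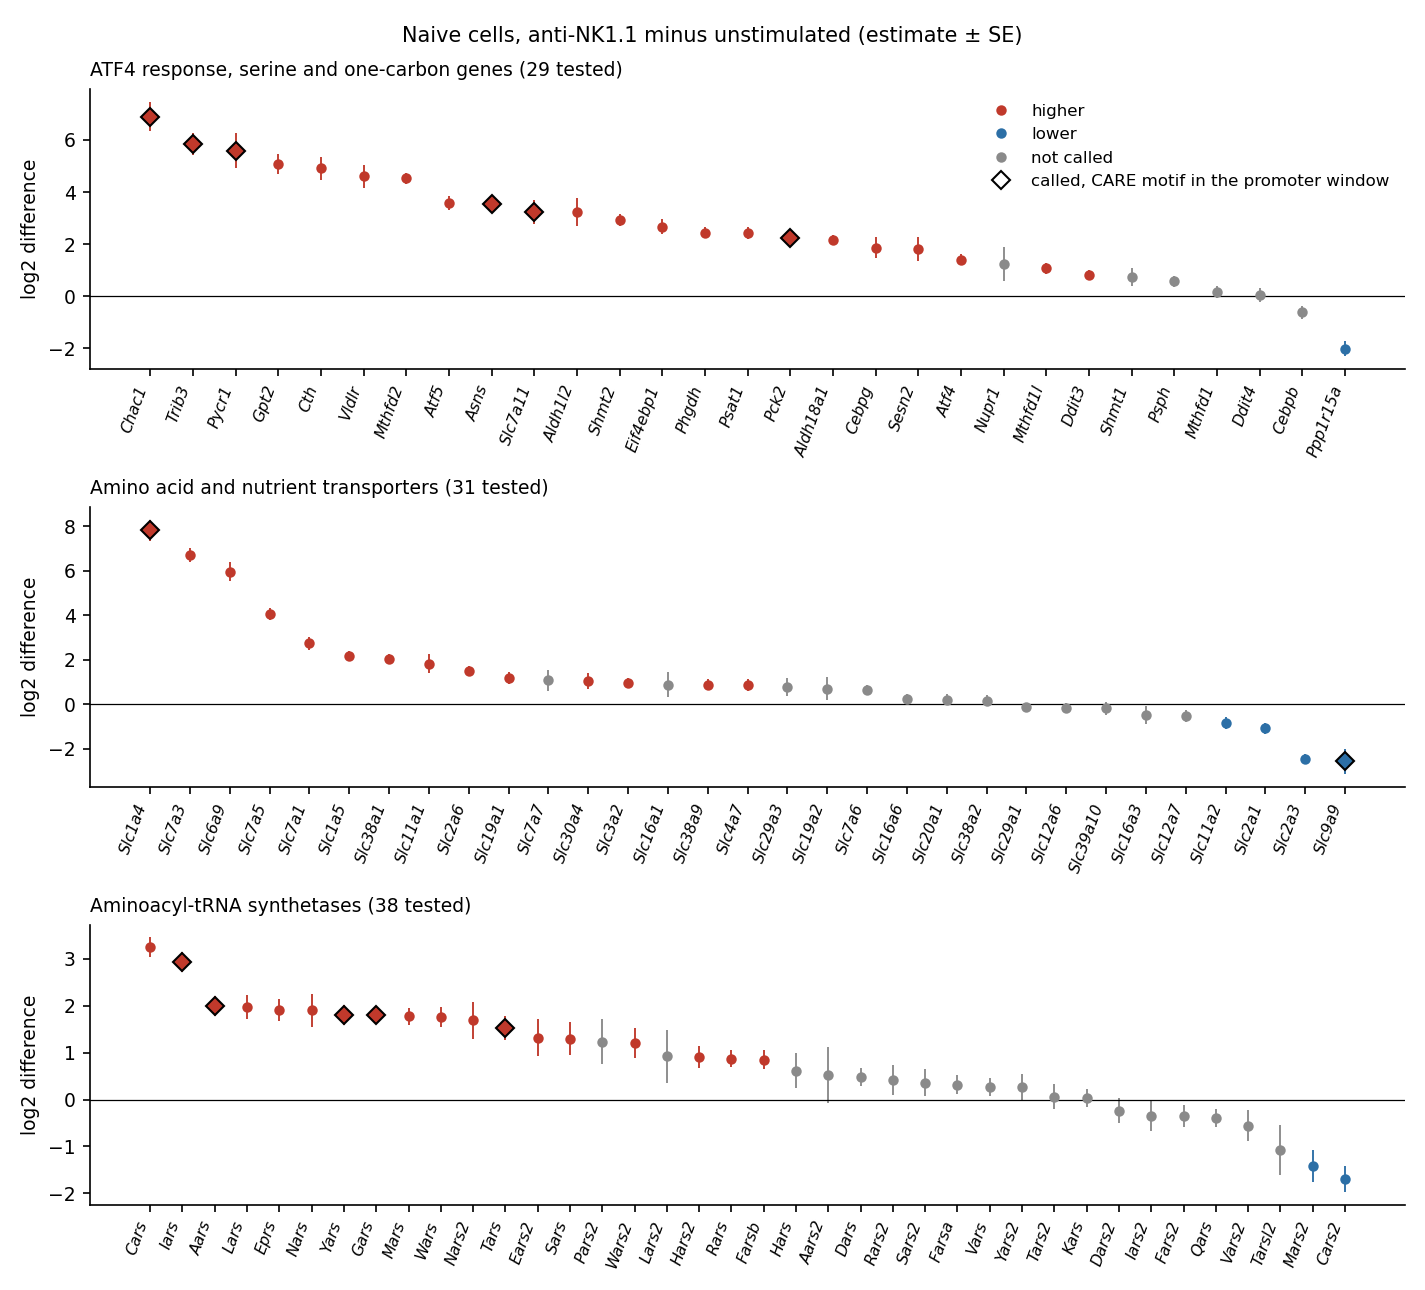
Log2 difference (anti-NK1.1 minus unstimulated, estimate ± SE) of each tested member of 3 lists, ordered by size, with genes called higher in red, lower in blue and not called in grey. Diamonds mark called genes whose promoter window held CARE; 22 of 29, 14 of 31 and 18 of 38 members lie in red.

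Ribosome biogenesis factors had 24 of 60 higher and 0 lower (median 0.64), led by *Tsr1* (13.5 ± 1.88 to 39.7 ± 4.35 CPM, 1.56 ± 0.20), *Utp4* (1.62 ± 0.24) and *Rrp12* (1.73 ± 0.27), which assemble the small subunit. Initiation and elongation factors had 12 of 45 higher and 0 lower, a count that fell to 6 without anti-NK1.1 replicate 1 and to 7 without unstimulated replicate 1, unstimulated replicate 4 or anti-NK1.1 replicate 5. *Eif2s2*, which encodes the β subunit of eIF2, rose from 2023, 952 and 877 to 5229, 5462 and 2855 CPM (1.86 ± 0.39). In a list of 76 cytosolic ribosomal protein genes 0 were called in either direction (limma and limma-voom; 0 at an unadjusted limma p under 0.05; median 0.02), and their summed level was 137477 ± 3726 CPM without and 143501 ± 9788 CPM with anti-NK1.1. *Rps3a1*, a cytosolic ribosomal protein gene outside this list, rose from 2989, 3246 and 2964 to 4083, 6790.4 and 4321 CPM (0.69 ± 0.23, adjusted p = 0.0376). Its adjusted p by limma was 0.08002, 0.06834 and 0.08634 without unstimulated replicates 1, 4 and 6, 0.1445 without anti-NK1.1 replicate 4 and 0.1175 when only naive libraries were fitted. The E-box CACGTG, a site of MYC and related factors, was found in 7 of 21 (33.3%) promoters of called ribosome biogenesis genes. The share was 12 of 55 (21.8%) for the whole list and 10.2% for all promoters. *Myc* itself stood at 13.02, 17.8 and 14.7 CPM without and 11.5, 10.4 and 10.2 CPM with anti-NK1.1 (-0.49 ± 0.22, adjusted p = 0.112), and *Mxd1*, a MAX partner that opposes MYC, fell from 287 ± 29.5 to 57.6 ± 6.34 CPM (-2.31 ± 0.18).

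Cell cycle genes, when called, were mostly lower. Of 53 S phase genes 25 were lower and 2 higher, with 16 lower and 1 higher without unstimulated replicate 6. Of 68 genes of G2 and mitosis 26 were lower (17 when only naive libraries were fitted) and 0 higher. *Ccna2*, a cyclin of S and G2 phase, went from 16.99, 15.8 and 25.7 to 4.07, 3.99 and 4.59 CPM (-2.16 ± 0.24). *Spc24*, a kinetochore protein, went from 15.2, 25.3 and 28.8 to 4.07, 4.17 and 5.42 CPM (-2.29 ± 0.25). *E2f1* and *E2f2*, regulators of S phase entry, fell (-2.20 ± 0.33 and -1.93 ± 0.27). None of the 4 overlapped. The helicase subunit gene *Mcm6* rose (90.6, 83.2 and 84.5 to 174, 166 and 211 CPM, 1.09 ± 0.18), whereas *Mcm7*, a subunit of the same helicase chosen after its values were seen, fell (-0.87 ± 0.22). In bulk RNA, fewer cycling cells and less of these messengers per cell cannot be told apart. The D cyclins *Ccnd1* (-1.68 ± 0.27) and *Ccnd3* (-1.57 ± 0.23) fell, and *Ccnd2* did not pass the threshold (-0.04 ± 0.20).

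Genes of this late cell cycle group are known to share the cell cycle genes homology region (CHR), searched as TTTGAA. It was found in 15 of 20 (75%) promoters from called members, 43 of 58 (74.1%) from the whole list and 12.2% of all promoters. CHR was thus about as common in the whole list as in its called members. CCAAT, the site of NF-Y, was found in 18 of 20 (90%), 42 of 58 (72.4%) and 38.8%. The windows of the 4 called members of smallest p with a match, chosen after the matches were seen, are printed over 30 bases in the motif's orientation, with CHR in capitals.
Cdca3 (chr6:124830194-124830223, plus strand): cgtggagggaagTTTGAAactccgggcttt
Ccnb2 (chr9:70421704-70421733, minus strand): cagggactagaaTTTGAAaataagactgta
Ccnb2 (chr9:70421533-70421562, minus strand): agcggcgcggtaTTTGAAtcgcggaccggg
Racgap1 (chr15:99651634-99651663, minus strand): ctggtgcgtgatTTTGAAccggatctggcg
Ube2c (chr2:164769888-164769917, minus strand): ccgccgcccgcgTTTGAAttgcaaccctcc

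Cytokine receptors, Janus kinases and STATs had 14 of 38 higher and 3 lower. *Stat3* rose from 259, 305 and 279 to 1243, 1595 and 1469 CPM (2.35 ± 0.17, adjusted p = 3.61e-07), *Stat5a*, which acts below IL-2 and IL-15, from 47.7, 71.2 and 57.4 to 372, 389 and 359.8 CPM, and *Stat4*, which acts below IL-12, from 142, 132 and 156 to 433, 539 and 397 CPM (1.66 ± 0.26). All 3 genes were higher in every stimulated library. *Il12rb1*, a chain of the IL-12 receptor, fell from 19.6 ± 1.62 to 3.44 ± 1.56 CPM (-2.59 ± 0.31), and *Jak3*, the kinase of the common γ chain, from 30.1 ± 1.78 to 6.63 ± 2.30 CPM (-2.22 ± 0.28). *Il2rb* (0.23 ± 0.23, adjusted p = 0.488) and *Il2rg* (-0.26 ± 0.24, adjusted p = 0.464), the signalling chains of the IL-15 receptor, did not pass the threshold.

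In the TGF-β list *Pmepa1* rose, an inhibitor of SMAD signalling that TGF-β induces. It stood at 23.5, 43.6 and 14.7 CPM in unstimulated and 2023, 1911 and 2048 CPM in anti-NK1.1 libraries (6.33 ± 0.30, adjusted p = 8.07e-09). *Ldlrad4*, a relative with the same function, rose from 8.09, 8.54 and 9.54 to 56.8, 43.7 and 57.0 CPM (2.57 ± 0.28), and *Ski*, a corepressor of SMADs, by 1.49 ± 0.19. *Smad3* fell from 146, 148 and 113 to 40.4, 37.4 and 34.5 CPM (-1.85 ± 0.22). Across the list 7 of 20 were higher and 2 lower. The members named here that rose are known as inhibitors of SMAD signalling. The other members called higher are not named, so this does not describe the list as a whole.

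In the Notch pathway, 3 known target genes fell while the DNA-binding factor rose. *Rbpj*, which binds DNA for Notch, stood at 62.7, 91.1 and 128 CPM without and 1108, 1493 and 1051 CPM with anti-NK1.1 (3.74 ± 0.33). The target genes *Hes1* (365, 299.8 and 659 to 28.3, 39.5 and 36.9 CPM) and *Nrarp* (83.9, 87.0 and 72.9 to 23.6, 21.9 and 19.5 CPM, -1.90 ± 0.20) fell without overlap. *Dtx1*, another target, went from 69.8, 99.1 and 80.5 to 0.443, 2.72 and 2.11 CPM. In total 8 of 27 were lower and 3 higher, the latter 1 without unstimulated replicate 1 or anti-NK1.1 replicate 5.

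Transcription factors of the NK lineage also moved both ways, 9 of 34 higher and 6 lower. *Eomes*, a factor of mature NK cells, stood at 473, 511 and 549.5 and 924, 815 and 1202 CPM (0.92 ± 0.22). *Tbx21*, which encodes its relative T-bet, stood at 319.8, 345 and 265 and 136, 117 and 124 CPM (-1.29 ± 0.21). *Id2* rose from 1304, 1248 and 1232 to 2338, 3924 and 2609 CPM (1.19 ± 0.25), *Bach2* from 103, 127 and 112 to 332, 402 and 546 CPM (1.88 ± 0.20) and *Runx1* from 143, 179 and 219 to 474, 449 and 627 CPM (1.53 ± 0.21). None of these 5 genes overlapped between groups. Of 27 quiescence factors 11 were lower and 1 was higher. *Klf2*, which keeps lymphocytes at rest and maintains homing receptors, fell from 617, 751 and 799.6 to 86.3, 79.2 and 89.6 CPM (-3.08 ± 0.18, adjusted p = 6.64e-08), and *Klf11* from 21.5, 19.3 and 18.1 to 1.35, 1.04 and 1.14 CPM (-3.98 ± 0.39).

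Receptors that direct cells through blood and lymph moved both ways. *S1pr5*, the sphingosine receptor for NK cell egress, fell from 98.0, 41.6 and 57.1 to 6.55, 4.94 and 6.46 CPM (-3.36 ± 0.67), and *Cmklr1*, the chemerin receptor, from 83.3, 91.1 and 66.1 to 10.7, 7.35 and 7.97 CPM (-3.21 ± 0.28). *Cxcr6*, the receptor for CXCL16 and a marker of tissue-resident cells, rose from 13.4, 9.76 and 11.05 to 149, 122 and 137 CPM (3.57 ± 0.22, adjusted p = 9.46e-08). *Ccr7*, which guides cells into lymph nodes, and *Ccr2* were chosen after their values were seen and rose by 1.99 ± 0.34 and 1.33 ± 0.24. The list had 6 of 27 higher and 8 lower, the latter 5 without unstimulated replicate 4, unstimulated replicate 6, anti-NK1.1 replicate 1 or anti-NK1.1 replicate 4.

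Integrin genes divided by subunit. *Itgav* (20.7, 17.1 and 13.4 to 121, 117 and 143 CPM, 2.91 ± 0.22) and *Itgb3* (20.4, 19.5 and 24.3 to 118, 118 and 175 CPM, 2.66 ± 0.25), whose products pair as the αvβ3 vitronectin receptor, and *Itga1* (2.07 ± 0.24) rose. *Itgb2*, the common chain of LFA-1 and Mac-1, fell from 444, 497 and 430.3 to 115, 125 and 128 CPM (-1.90 ± 0.18), and *Itgb7* fell too (-1.79 ± 0.18). *Itgam* and *Itga2*, which encode CD11b and CD49b of mature NK cells, were chosen after their values were seen and fell (-2.12 ± 0.41 and -1.74 ± 0.35). Among 25 adhesion genes 12 were lower and 5 higher. *Tmsb4x*, which sequesters actin monomers, fell from 10985, 15006 and 15006 to 4015, 3111 and 4015 CPM (-1.87 ± 0.24), whereas *Capg*, a capping protein, rose from 72.5, 47.0 and 43.4 to 519, 416 and 601 CPM (3.26 ± 0.25) and *Lcp1*, the actin bundler L-plastin, from 706, 1279 and 1509 to 3924, 2338 and 4235 CPM (1.61 ± 0.31). *Actb* held one of the 2 highest values of the quantile-normalized scale in every naive library, 15006, 18785 and 18785 CPM without and 18785, 18785 and 15006 CPM with anti-NK1.1, so this scale cannot show a rise of the gene; per the labels' protocols libraries were pooled by qPCR of this gene.

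In the BCL2 family 9 of 39 genes were higher and 7 lower. *Bcl2l11*, which encodes the proapoptotic protein BIM, stood at 198, 273 and 225 CPM without and 2739, 5604 and 3488 CPM with anti-NK1.1 (4.04 ± 0.25, adjusted p = 7.86e-08). The prosurvival genes *Bcl2a1b* (2.23 ± 0.376 to 37.1 ± 11.5 CPM, 3.98 ± 0.26) and *Bcl2a1d* (0.618 ± 0.123 to 11.8 ± 4.36 CPM, 4.05 ± 0.37) also rose, and as near-identical copies they can share reads. *Gimap7*, an immune GTPase, fell from 73.9, 89.5 and 75.1 to 9.69, 6.67 and 9.76 CPM (-3.20 ± 0.21). *Bcl2* itself did not pass the threshold (0.55 ± 0.24, adjusted p = 0.0986).

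Glycolysis had 8 of 22 lower (4 without unstimulated replicate 4) and 2 higher (1 without unstimulated replicate 1, unstimulated replicate 6 or anti-NK1.1 replicate 4). *Eno1* fell from 85.0, 82.9 and 77.5 to 40.5, 35.0 and 40.4 CPM (-1.08 ± 0.20), *Pfkfb3*, which makes an activator of phosphofructokinase, rose by 1.43 ± 0.20, and *Gapdh* (-0.33 ± 0.28, adjusted p = 0.401) and *Ldha* (-0.29 ± 0.23, adjusted p = 0.363) did not pass the threshold. The respiratory chain had 13 of 73 lower (17.8%, near the 14.7% of all genes) and 1 higher, and the first count fell to 4 without anti-NK1.1 replicate 4, 5 without unstimulated replicate 4 or 6 and 7 without anti-NK1.1 replicate 1. In cholesterol and fatty acid synthesis 7 of 36 were higher (19.4%) and 4 lower (11.1%), beside 14.5% and 14.7% of all genes. The higher count was 3 without unstimulated replicate 4 or anti-NK1.1 replicate 1 and 4 without unstimulated replicate 6. The lower count was 1 without unstimulated replicate 1 or anti-NK1.1 replicate 4 and 2 without anti-NK1.1 replicate 5. *Msmo1* (1.65 ± 0.19) and *Sc5d* (1.29 ± 0.22), enzymes of cholesterol synthesis, rose. Chaperone genes of the endoplasmic reticulum had 4 of 34 higher (11.8%) and 5 lower (14.7%), near the 14.5% and 14.7% of all genes. *Hspa5*, which encodes BiP, fell from 1202, 1366 and 642 to 483, 424 and 418 CPM (-1.21 ± 0.25).

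Interferon-stimulated genes moved in both directions, 15 of 59 higher and 11 lower (7 lower without anti-NK1.1 replicate 4). Among GTPase genes that are typical targets of interferon-γ, *Gbp2* (48.0, 26.9 and 35.7 to 276, 260.3 and 271 CPM, 2.90 ± 0.23), *Iigp1* (5.90, 7.34 and 1.85 to 89.5, 134 and 66.7 CPM, 4.40 ± 0.43) and *Gbp7* (1.66 ± 0.20) rose, and *Gbp4* (0.35 ± 0.32), *Gbp8* (-0.89 ± 0.52) and *Gbp9* (-0.34 ± 0.54) did not pass the threshold. The chemokine *Cxcl9*, a further target of interferon-γ, went from 3.89, 9.60 and 2.74 to 243, 169 and 279.9 CPM (5.57 ± 0.54). *Irf7*, a regulator of the type I interferon response, fell from 56.9, 71.0 and 58.5 to 16.3, 15.1 and 17.8 CPM (-1.91 ± 0.22), and *Ifit3*, an antiviral gene chosen after its values were seen, fell (-2.07 ± 0.50). *B2m* (-0.34 ± 0.22, adjusted p = 0.276) and *H2-K1* (-0.45 ± 0.23, adjusted p = 0.17) did not pass the threshold.

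Other genes named by size or p belonged to no list. *Rgs16*, an inhibitor of G protein signalling, rose from 6.62, 8.26 and 9.002 to 149.7, 128 and 164 CPM (4.20 ± 0.19, adjusted p = 8.07e-09), *Pdcd1lg2*, which encodes the checkpoint ligand PD-L2, from 10.9, 12.4 and 12.3 to 97.4, 114 and 109 CPM (3.16 ± 0.18) and *Cemip2* by 3.57 ± 0.22. *Aoah* went from 33.5, 43.6 and 42.9 to 3.02, 1.90 and 1.79 CPM and *Lgals1*, which encodes galectin-1, from 1479.8, 2064 and 1839.7 to 226, 163 and 222 CPM (-3.14 ± 0.22). The 129 tested genes without a read in any unstimulated library and the 65 without one in any stimulated library included *Rab39b*, chosen after its values were seen (0 and 189 reads, at least 47.1-fold higher). Since the unstimulated libraries were shallower, these numbers of genes are not compared.

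Markers of other cells were summed to show what else the libraries held. NK identity genes summed to 20056 ± 1921 CPM without and 9214 ± 799 CPM with anti-NK1.1, with 7 of 14 lower and 1 higher. Most of the fall lay in *Gzma*, *Nkg7* and *Tyrobp*, with mean changes of -4023, -2453 and -2222 CPM. *Eomes* rose, and *Klrk1*, *Klre1*, *Il2rb*, *Gzmb*, *Prf1* and *Fcer1g* were not called. B cell markers summed to 16.9 ± 2.71 CPM without and 4.26 ± 1.76 CPM with anti-NK1.1 (2 of 8 lower, 0 higher), and *Cd22* had 182 reads over the unstimulated and 0 over the stimulated libraries. Of 13 basophil and mast cell markers 7 were lower (11 by limma-voom on reconstructed reads) and 1 higher (2 without anti-NK1.1 replicate 4), with sums of 392.1 ± 65.6 and 335 ± 79.7 CPM. *Cpa3* (-3.44 ± 0.62) and *Ms4a2* (-3.44 ± 0.55) fell, while *Kit*, also a receptor of some innate lymphoid cells, rose from 35.3, 16.9 and 42.1 to 104, 256 and 242 CPM (2.66 ± 0.37). Macrophage and dendritic cell markers summed to 1033 ± 90.6 and 989.6 ± 105 CPM. Of 24 such genes 2 were higher (8.33%) and 4 lower (16.7%), beside 14.5% and 14.7% of all genes, with a median of -0.83. The lower count fell to as few as 2 when a naive library was left out. Neutrophil markers summed to 16.0 ± 1.07 and 14.5 ± 2.07 CPM, and T cell markers to 169 ± 24.8 and 197 ± 15.01 CPM. The erythroid and platelet sum was 716 ± 195 CPM without and 1492 ± 787 CPM with anti-NK1.1, most of it *Car2* (313, 250.2 and 535 to 755, 2048 and 863 CPM), for which anti-NK1.1 replicate 4 was the highest. Of its 17 genes 2 were higher and 2 lower (1 lower without unstimulated replicate 4, unstimulated replicate 6, anti-NK1.1 replicate 1 or anti-NK1.1 replicate 4; median -0.47), and *Car1* fell from 80.9, 113 and 102 to 8.98, 9.82 and 12.6 CPM (-3.23 ± 0.38). The part of other cells in the gene results above was not tested.

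**Figure D4:**
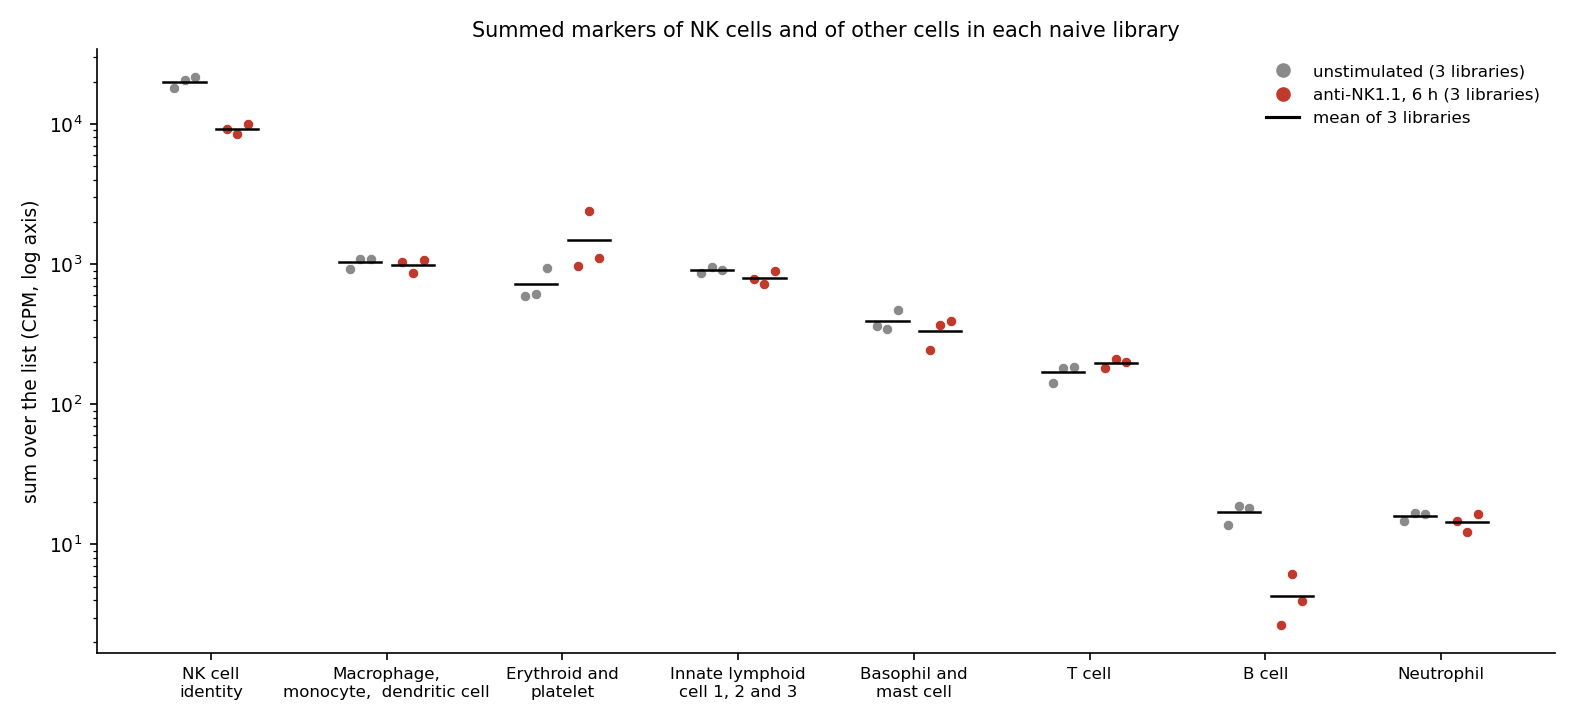
Sum of marker genes of NK cells and of 7 other groups of cells (x axis) in each naive library (y axis, CPM on a log axis), with unstimulated libraries in grey, anti-NK1.1 libraries in red and means of 3 libraries as black bars. NK identity and B cell sums lie lower in all 3 anti-NK1.1 libraries, and the erythroid sum is highest in anti-NK1.1 replicate 4.

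To show where the naive response stood apart, it was set against the response of cells kept for 72 hours in HD IL-15 (3 anti-NK1.1 and 2 unstimulated libraries; the labels do not spell out HD) by testing the difference of both responses in the same model. The responses share no library, but all naive libraries were in library pool 2 and all HD libraries in pool 1. The difference, HD minus naive, was called above 0 for 833 genes (7.22% of those tested) and below 0 for 925 (8.01%). Of the 3376 genes called in naive cells, 879 had a called difference. Among them 221 were called in opposite directions, 111 of them higher in naive and lower in HD cells and 110 the reverse.

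The handling and immediate early genes stood among those that differed. In the handling list, 18 of 28 genes had a called difference, each with the HD value above the naive one. *Fosb* changed by 3.24 ± 0.44 in HD cells (difference of responses 8.03 ± 0.59, adjusted p = 1.03e-06), *Nfkbia* by 1.77 ± 0.25 (difference 3.61 ± 0.33, adjusted p = 8.14e-06) and *Nfkbiz* by 1.85 ± 0.30. In the MAP kinase feedback list 13 of 25 differed, again each above 0. Effector genes differed as well, 22 of 40 with a greater change in HD cells and 5 with a smaller one. *Ifng* rose by 5.79 ± 0.26 there (difference 4.50 ± 0.34, adjusted p = 1.35e-06).

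Some increases were greater in naive cells. *Ly6a*, which encodes the stem cell antigen Sca-1, stood at 3.78, 6.93 and 5.31 CPM without and 130.5, 92.5 and 138 CPM with anti-NK1.1 (4.50 ± 0.30) and changed by -0.93 ± 0.34 in HD cells (difference -5.43 ± 0.45, adjusted p = 3.22e-06). *Pmepa1* (-2.78 ± 0.44), *Cxcr6* (-3.75 ± 0.33), *Stat3* (-2.59 ± 0.26), *Itgb3* (-4.44 ± 0.37), *Bcl2l11* (-2.78 ± 0.37) and *Mthfd2* (-1.47 ± 0.33) also had called differences below 0. *Mthfd2* stood higher in HD cells, at 226 and 1873 CPM without and with anti-NK1.1, than in naive cells (45.4 and 1063 CPM). *Bcl2l11* started alike, at 238 and 566 CPM in HD and 232 and 3944 CPM in naive cells. Genes named for naive increases favour differences below 0, which subtract the same naive estimate. In the ATF4 list 9 of 29 members differed in that direction and 3 in the other, and in the interferon list 16 of 59 and 2. For *Klrb1c* the responses did not differ beyond their error (-3.92 ± 0.20 in HD cells, difference -0.49 ± 0.27, adjusted p = 0.237).

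**Figure D5:**
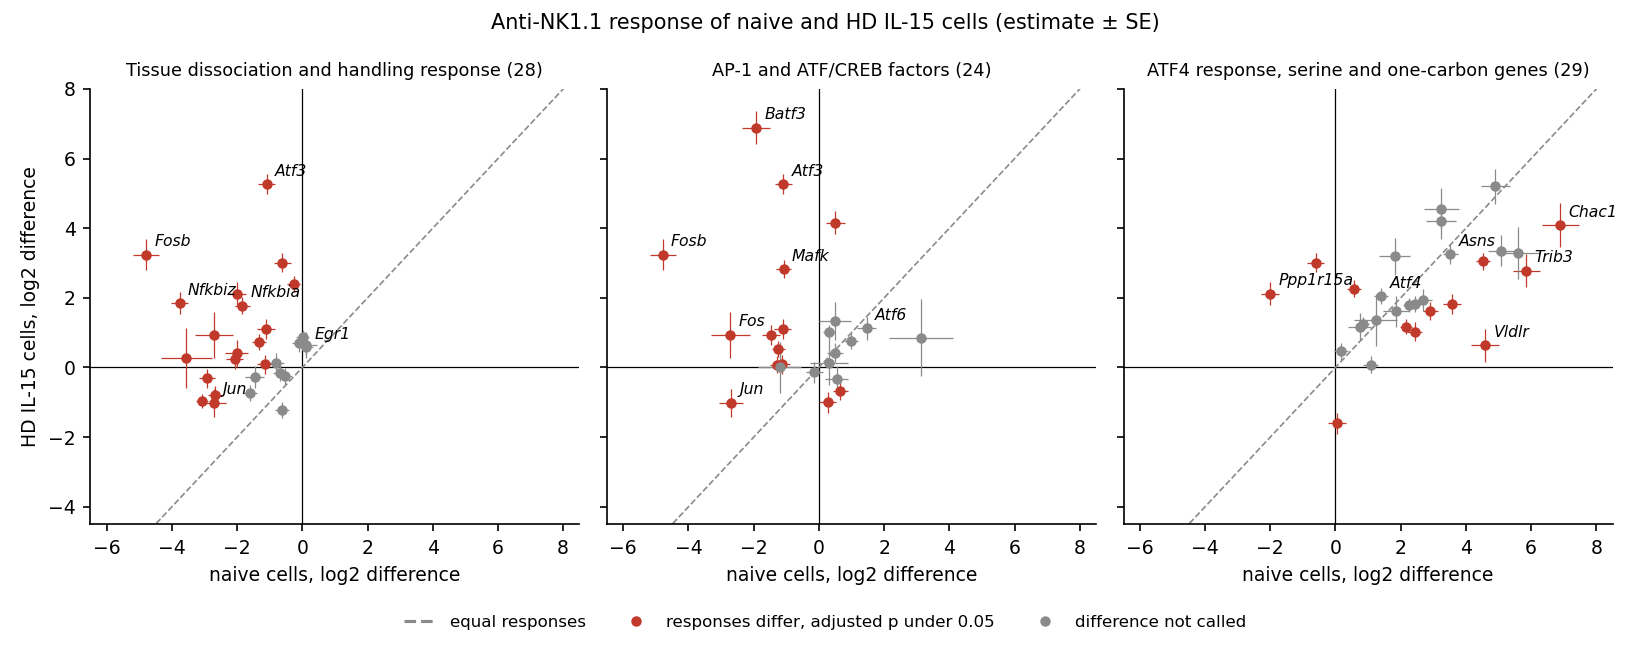
Log2 difference after anti-NK1.1 in HD IL-15 cells (y axis) against naive cells (x axis), estimate ± SE, for 3 lists, with genes whose responses differ in red and other genes in grey; the dashed line marks equal responses. Differences of handling and AP-1 genes such as *Fosb* and *Atf3* lie lower in naive and higher in HD cells, and most ATF4 list genes lie above 0 on both axes.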

How the data were processed

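RNA of 13 libraries was measured by sequencing, per the labels' protocols from bead-captured messenger RNA in strand-specific libraries pooled before amplification. The authors deposited 1 table of 11989 genes on the log2 scale, log2 of a quantile-normalized count plus 1, per the file headers. The build was mm10 per the submitters' processing notes, and the aligner and counter are not given in the sources used here. Quantile normalization gives every library the same distribution and removes depth. Values were back-transformed and scaled to CPM. Genes whose back-transformed value, before scaling to CPM, reached 10 in 2 or more libraries were tested. Reads per gene were recovered from the order of the distinct values in each library up to rank 7000, a reconstruction used for depth, read floors and alternatives.

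A model of 5 groups over 13 libraries was fitted with limma 3.58.1 in R 4.3.3 (variance trend, Benjamini-Hochberg over 11543 genes), which shares 1 estimate of spread (8 residual and 6.3 prior degrees of freedom). Tested on simulated data with 200 changed genes, the fit recovered 30.6% of log2 changes of 1 and 72% of changes of 2, and 5.51% of calls were false. In the data 3376 genes were called. The adjusted p depends on the share of changed genes, so these rates are not those of this comparison. Counting error alone is covered by read floors, since reads without molecular identifiers are not independent molecules. Sums and promoters were computed with Python 3.11.15.

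Gene lists and the genes named were chosen with earlier results of these data known. Named by rule were called genes without overlap and with a mean of at least 20 CPM (the 12 largest and 12 smallest-p changes in each direction and the 12 largest gains and losses in level), up to 5 called and 3 uncalled members per list, and a panel of 20 genes. Alternatives were other filters, offsets, library sets, moderation, recovered reads, a replicate block and leaving out each naive library. Cells in LD IL-15 entered the fit only. Some genes and sequences that these rules select are not reported here.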

Additional observations from a re-analysis of the deposited data

Results flagged for a closer look

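The response to anti-NK1.1 differed between HD IL-15 cells and naive cells by a test of the difference itself, and in all naive and HD libraries cell state and library pool cannot be told apart. The difference, HD minus naive on the log2 scale, was called above 0 for 833 genes and below 0 for 925. Among effector and granule genes it was 4.50 for *Ifng*, 3.06 for *Ccl3*, 2.56 for *Ccl4*, 3.50 for *Xcl1* and 1.11 for *Gzmb*. Among early and growth genes it was 2.66 for *Nr4a1*, 3.65 for *Fos*, 8.03 for *Fosb*, 2.51 for *Myc*, 5.61 for *Nfkbiz* and 3.61 for *Nfkbia*. It was 3.81 for the clock gene *Per1* and 2.12 for *Klf2*. *Per1* stood at 10.1 and 20.3 CPM without and with anti-NK1.1 in HD cells and at 156 and 22.5 CPM in naive cells. The lineage factors parted, with 2.03 for *Tbx21* and -2.52 for *Eomes*. *Klrb1a* had a difference of 1.42, *Mthfd2* of -1.47, *Gapdh* of -1.42, *Ly6a* of -5.43 and *Gnas*, which encodes a G protein subunit, of -2.26. In naive cells *Gnas* stood at 809, 1101 and 1267 CPM without and 4686, 1304 and 1712 CPM with anti-NK1.1. Its naive call was lost under several alternatives, among them without anti-NK1.1 replicate 1 (0.52, adjusted p = 0.208 by limma). The naive groups hold 3 libraries each, too few for a search for a library far from the others.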

How the results depend on the processing

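Of 16 alternatives, the replicate block alone moved a count over all genes by more than 1.5 times. With the labels' replicate number as a block, 962 genes were higher and 902 lower, and the difference to HD cells was called above 0 for 429 and below 0 for 427. Same-numbered naive libraries deviated from their group means with r of -0.011 (replicate 1) and -0.045 (replicate 4), and replicates 5 and 6 have no partner. So few pairs cannot show whether libraries of the same number shared an animal or a preparation, and the labels do not say. Leaving out each naive library in turn gave 1335 to 1483 genes higher and 1342 to 1438 lower, with differences to HD cells above 0 for 660 to 768 and below 0 for 715 to 857. No called gene among those named reversed its direction. Of 275 called named genes, 251 kept their call under every alternative other than the block, 254 under each leave-one-out and 230 under all. Depth limits low genes most, and the shallower unstimulated libraries more than the stimulated ones.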

Other observations

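Of 28 activation and costimulatory receptors 10 were higher and 4 lower. *Tnfrsf9*, which encodes the costimulatory receptor 4-1BB, rose from 74.1, 77.2 and 89.3 to 596, 627 and 655 CPM (2.97 ± 0.19), and *Thy1* and *Cd7*, surface proteins of lymphocytes, fell (-2.36 ± 0.20 and -2.60 ± 0.23). Of 24 regulators of mRNA decay (median 0.33) 6 were higher (25%) and 3 lower (12.5%), beside 14.5% and 14.7% of all genes. The higher count was 3 without unstimulated replicate 1 or anti-NK1.1 replicate 5. *Zc3h12a*, whose product Regnase-1 cleaves cytokine messengers, fell from 41.8, 40.7 and 43.1 to 8.42, 9.08 and 7.30 CPM (-2.34 ± 0.25). Of 54 autophagy and lysosome genes 15 were lower and 3 higher, the latter 1 without anti-NK1.1 replicate 5.

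Single genes of other pathways also changed without overlap between groups. The clock gene *Per1* fell from 151, 168 and 148 to 24.1, 21.9 and 21.6 CPM (-2.79 ± 0.20), and *Rora*, a nuclear receptor of clock and innate lymphoid cell programmes, rose by 1.66 ± 0.24. The histone demethylase gene *Kdm6b* and the methyltransferase gene *Dot1l* rose by 1.498 ± 0.20 and 1.63 ± 0.21, and *Hdac7* fell (-1.76 ± 0.21). *Srxn1*, which repairs oxidized peroxiredoxins, rose from 15.2, 12.6 and 10.2 to 92.4, 82.4 and 84.7 CPM (2.78 ± 0.20), *Tfrc*, the transferrin receptor gene, rose by 2.13 ± 0.36, and *Idh2*, a mitochondrial isocitrate dehydrogenase, fell (-2.47 ± 0.33). *Cd6*, a surface receptor of T cells in the T cell marker list, stood at 0.0117, 0.320 and 0.320 CPM without and 7.45, 11.8 and 8.85 CPM with anti-NK1.1 (5.27 ± 0.50).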
